A study of Mus musculus with 4 samples.

Results

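Glutathione S-transferases (GSTs) are enzymes that join glutathione to reactive compounds. The family members described here are the alpha class genes Gsta2, Gsta3 and Gsta4, the mu class genes Gstm1, Gstm2, Gstm3, Gstm4 and Gstm6, the pi class gene Gstp1 and the theta class gene Gstt1. A probe set, the group of probes that reads 1 transcript region on the array, was taken when its single gene symbol was one of these 10 genes. This gave 15 of 45037 probe sets. Probe sets were matched by name alone, while the family itself was chosen with earlier results of these data known.

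Transcripts were measured in the livers of male mice with Affymetrix arrays that read the 3' ends of genes, with 1 array for each of 4 groups. The groups were LASS2-/- on high-fat diet (HFD), wild type (WT) on HFD, LASS2-/- on chow, and WT on chow. The HFD held 60% and the chow 10% of calories from fat, and both diets began at 3 weeks of age. Lass2 is the former name of Cers2, which encodes a ceramide synthase. The age at sampling, the strain, how the Lass2 allele was made, and whether an array held 1 mouse or a pool are not given in the labels.

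The conjugates that GSTs make are exported from the cell and trimmed to mercapturic acids. Alpha and mu class enzymes are abundant in hepatocytes, where they act on drug metabolites and on aldehydes from lipid peroxidation. Several alpha and mu class genes are induced in mouse liver by electrophiles through the transcription factor NRF2, encoded by Nfe2l2, and several mu class genes are expressed mostly by hepatocytes around the central vein.

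All values are log2 signals from the deposited table, so a difference of 1 is a 2-fold difference. With 1 array a group there is no spread between mice, and a ratio of 2 arrays carries no test. Mean effects of diet and of genotype were tested with limma on all 12493 genes that entered. That fit adds a diet and a genotype term and takes as its error the amount by which the genotype effect differs from one diet to the other. Its standard errors, given after ±, come mostly from other genes of like signal.

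The log2 signal of Cers2 was 12.32 on LASS2-/- HFD, 12.25 on WT HFD, 12.32 on LASS2-/- chow and 12.46 on WT chow, so it was not lower on both arrays labelled LASS2-/-. Which part of the transcript its probe set reads, and whether that part was deleted, is not known, so this checks the labels neither way. Genotypes are therefore named below as the arrays are labelled. Alb, which encodes albumin, lay between 15.02 and 15.27 on the 4 arrays, and of 10 hepatocyte markers 9 entered. The 15 GST probe sets lay above the array median on all 4 arrays, and the dimmest was brighter than 81.9% of all probe sets.

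The high-fat diet arrays carried more transcript of 5 of the 10 GST genes, with the largest differences in Gstm3, Gsta2 and Gstm4. Gstm3 was 4.21-fold higher on HFD than on chow in the arrays labelled LASS2-/-, and 2.57-fold higher in those labelled WT. Gsta2 was 2.42-fold and 1.52-fold higher on the same ratios, and Gstm4 1.90-fold and 1.41-fold. In limma Gsta2, Gsta4, Gstm2, Gstm3 and Gstm4 rose with HFD and 0 members fell. In either direction, 7 of the 10 had an unadjusted limma p under 0.05, as 23.8% of all genes did. These 7 included Gstp1, which was lower on HFD. Among all genes 6.26% rose and 5.04% fell, and among genes with a mean log2 signal of 10 or more, where every member lies, 9.98% rose. Without the trend of variance on signal in the moderation, 0 members and 0 of all genes passed.

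**Figure D1:**
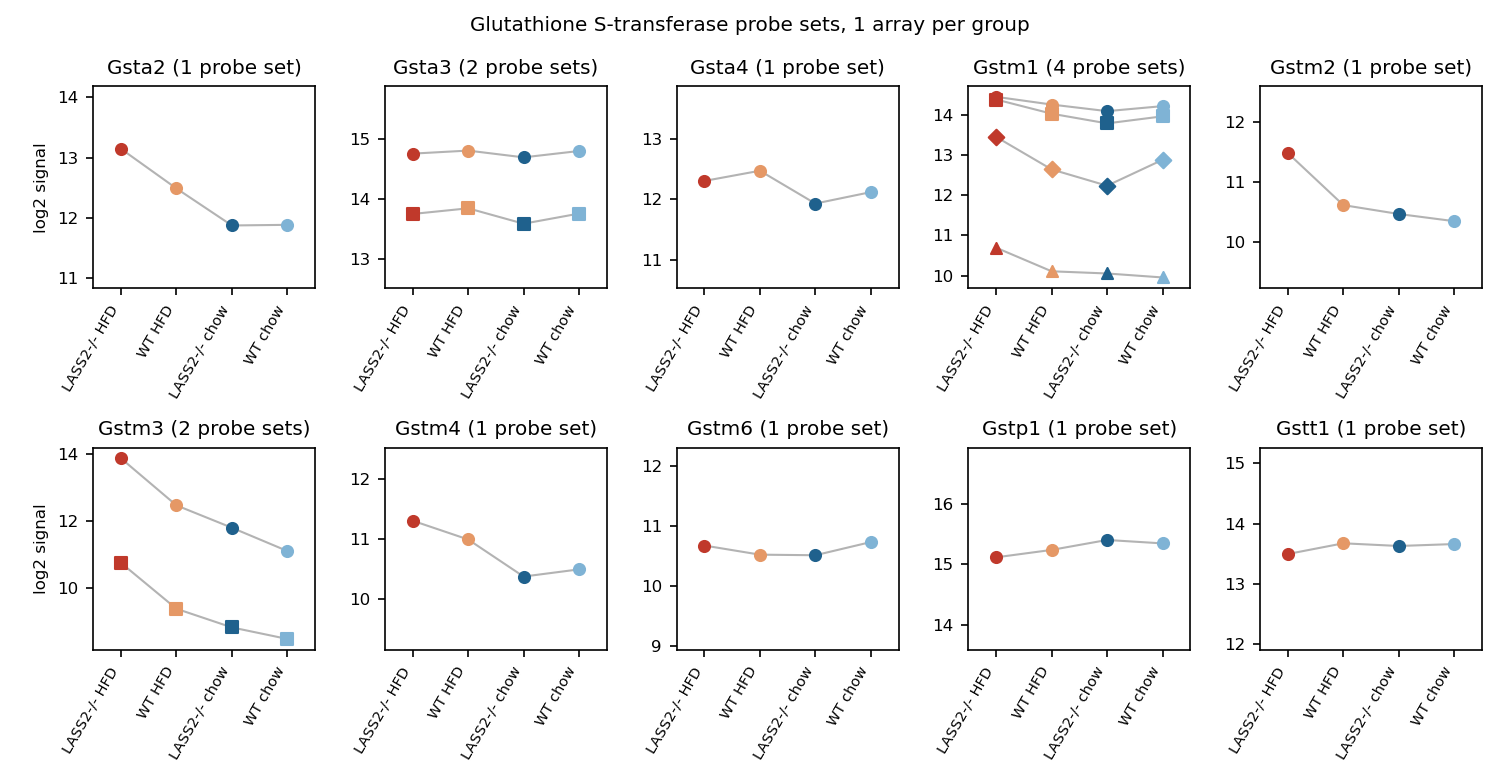
Log2 signal (vertical axis) of each GST probe set on the 4 arrays (horizontal axis), with 1 panel a gene, 1 marker shape a probe set, and a grey line joining the values of 1 probe set. Each point is 1 array, with no error bar because there is 1 array a group, and the vertical axes differ between panels. The Gstm3 and Gsta2 points are highest on LASS2-/- HFD, at 13.86 and 13.14, while the Gsta3, Gstm6, Gstp1 and Gstt1 points lie nearly level.

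Gstm3, a mu class gene, had the widest range of the family. Its brighter probe set, of the _s_at kind, gave log2 signals of 13.86 on LASS2-/- HFD, 12.46 on WT HFD, 11.79 on LASS2-/- chow and 11.10 on WT chow. Both HFD arrays thus lay above both chow arrays, and within each diet the array labelled LASS2-/- lay above the one labelled WT. The second probe set had 10.74 on LASS2-/- HFD, 9.37 on WT HFD, 8.81 on LASS2-/- chow and 8.47 on WT chow, in the same order. On this probe set the HFD over chow ratio was 3.80-fold in LASS2-/- and 1.87-fold in WT. The diet effect in limma was 1.72 ± 0.13 log2 (adjusted p = 1.51e-06) for the brighter probe set. When each probe set was fitted on its own row, limma gave the dimmer one 1.41 ± 0.21 (adjusted p = 0.00101). The suffix _s_at marks a probe set whose probes can match more than 1 transcript, so signal of other mu class genes in it cannot be told apart.

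Gsta2 belongs to the alpha class, whose products reduce lipid hydroperoxides. It had a log2 signal of 13.14 on LASS2-/- HFD, 12.49 on WT HFD, 11.87 on LASS2-/- chow and 11.88 on WT chow. The chow arrays were within 0.01 of each other, while the HFD arrays were apart by 0.66. Its diet effect in limma was 0.94 ± 0.13 (adjusted p = 0.000236).

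Gstm4, another mu class gene, had 11.30 on LASS2-/- HFD, 10.99 on WT HFD, 10.37 on LASS2-/- chow and 10.49 on WT chow. Both HFD arrays lay above both chow arrays, and its diet effect in limma was 0.71 ± 0.13 (adjusted p = 0.00212). Gsta4, whose product conjugates hydroxynonenal, an aldehyde from lipid peroxidation, had 12.31 on LASS2-/- HFD, 12.48 on WT HFD, 11.93 on LASS2-/- chow and 12.12 on WT chow. It rose by a similar amount in both genotypes, 1.30-fold in LASS2-/- and 1.28-fold in WT, with a diet effect in limma of 0.37 ± 0.09 (adjusted p = 0.0207).

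Gstm2 had 11.48 on LASS2-/- HFD, 10.62 on WT HFD, 10.47 on LASS2-/- chow and 10.35 on WT chow. The array labelled LASS2-/- HFD stood apart, and the other three lay within 0.27 log2. Its HFD over chow ratio was 2.02-fold in LASS2-/- and 1.20-fold in WT, and its diet effect in limma was 0.64 ± 0.15 (adjusted p = 0.0139). That call was lost with arrays scaled to equal medians (adjusted p = 0.0626), with robust moderation (adjusted p = 0.0938) and without trend (adjusted p = 0.401).

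Gstm1, the mu class gene with the most probe sets here, gave differing answers by probe set. The brightest had 14.44 on LASS2-/- HFD, 14.25 on WT HFD, 14.09 on LASS2-/- chow and 14.21 on WT chow. The 4 probe sets were each highest on LASS2-/- HFD, and their HFD over chow ratios ran from 1.28-fold to 2.32-fold in LASS2-/-. In WT the same ratios ran from 0.848-fold to 1.11-fold. The limma diet effect of the brightest was 0.20 ± 0.09 (adjusted p = 0.181). Probe sets ending in _x_at hold probes that can match transcripts of similar genes, and 2 of the 4 end so.

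The remaining members differed little. Gsta3, an alpha class gene abundant in mouse liver, had 14.75 on LASS2-/- HFD, 14.80 on WT HFD, 14.69 on LASS2-/- chow and 14.79 on WT chow on its brighter probe set. Its limma diet effect was 0.03 ± 0.07 (adjusted p = 0.829). Gstm6 had 10.67 on LASS2-/- HFD, 10.52 on WT HFD, 10.51 on LASS2-/- chow and 10.73 on WT chow, with a limma diet effect of -0.02 ± 0.13 (adjusted p = 0.935). These signals overlapped between diets for Gstm6 and spanned 0.11 log2 for Gsta3.

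Gstp1, the pi class gene, which is abundant in male mouse liver, had 15.12 on LASS2-/- HFD, 15.24 on WT HFD, 15.41 on LASS2-/- chow and 15.35 on WT chow. It was lower on both HFD arrays, with a limma diet effect of -0.20 ± 0.07 (adjusted p = 0.108) that did not pass. Gstt1, whose product acts on halogenated alkanes, had 13.50 on LASS2-/- HFD, 13.67 on WT HFD, 13.63 on LASS2-/- chow and 13.66 on WT chow, with a limma diet effect of -0.06 ± 0.08 (adjusted p = 0.722). Both genes differed by less than 0.29 log2 between any pair of arrays.

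By the single ratios, 3 members (Gstm3, Gsta2 and Gstm2) were at least 2-fold higher on HFD in the arrays labelled LASS2-/-, where 3.11% of all genes were. In those labelled WT, 1 member (Gstm3) was, where 2.13% of all genes were. No member was 2-fold lower on either ratio, where 1.89% and 1.24% of all genes were. The median log2 ratio of the members was 0.37 in LASS2-/- and 0.15 in WT, and over all genes it was -0.01 and 0.02. Among genes with a mean log2 signal of 10 or more, 1.57% were 2-fold higher in LASS2-/- and 1.37% in WT. At 1.5-fold, 4 members were higher in LASS2-/- and 2 in WT, where 10.1% and 7.71% of all genes were. The 2 diet ratios share no array. Without the _x_at and _s_at probe sets the WT count was 0, since the remaining Gstm3 probe set was 1.87-fold higher.

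The genotype label went with a higher Gstm3 signal, while the other members did not pass. On HFD, Gstm3 was 2.65-fold higher on the array labelled LASS2-/- than on the one labelled WT, and on chow 1.62-fold higher. Its genotype effect in limma was 1.05 ± 0.13 (adjusted p = 0.0026). Of the 10 members 1 rose and 0 fell, where 0.56% of all genes rose and 0.352% fell and 0.836% of those with a mean log2 signal of 10 or more rose, and 3 members had an unadjusted p under 0.05, as 10.4% of all genes did. The call of Gstm3 was lost with equal medians (adjusted p = 0.06655), without _x_at and _s_at probe sets (adjusted p = 0.0607), with robust moderation (adjusted p = 0.208) and without trend (adjusted p = 0.742). It held in the other 5 alternatives, and the effect lay between 0.86 and 1.10 log2 in all 9. Several of the 9 left the Gstm3 values unchanged, so their effect was 1.05 by construction. These were no filter, floored values, each probe set on its own row, no trend and robust moderation. Of the alternatives that changed its values, quantile normalization and the mean of all probe sets kept the call. Fitted on its own row, the dimmer Gstm3 probe set did not pass for genotype in limma (0.86 ± 0.21, adjusted p = 0.14), and its genotype ratio was 2.59-fold on HFD and 1.27-fold on chow.

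On HFD the arrays differed by genotype label in more members than Gstm3. Gstm2 was 1.82-fold and Gsta2 1.58-fold higher on LASS2-/- HFD than on WT HFD, while on chow their ratios were 1.09-fold and 0.993-fold. Their limma genotype effects were 0.49 ± 0.15 (adjusted p = 0.206) for Gstm2 and 0.32 ± 0.13 (adjusted p = 0.377) for Gsta2. At a 2-fold limit 1 member was higher and 0 were lower on HFD, where 1.47% and 0.488% of all genes were. On chow 0 were higher and 0 lower, where 1.16% and 0.424% of all genes were. Among genes with a mean log2 signal of 10 or more, 0.431% were 2-fold higher on HFD and 0.304% on chow. At 1.5-fold 3 members were higher on HFD, where 5.73% of all genes were, and 1 on chow, where 5.68% were. The median log2 ratio of the members was 0.17 on HFD and -0.07 on chow, against 0.00 and 0.03 over all genes.

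Taken from the brightest probe set of each gene, the log2 genotype ratio on HFD exceeded that on chow by 0.74 in Gstm2. It did so by 0.71 in Gstm3, 0.67 in Gsta2, 0.43 in Gstm4, 0.37 in Gstm6 and 0.32 in Gstm1. It differed by 0.06 in Gsta3 and 0.02 in Gsta4, and by -0.15 in Gstt1 and -0.18 in Gstp1. On the dimmer probe sets the same difference was 1.03 in Gstm3, 0.07 in Gsta3, and 0.49, 1.45 and 0.53 in Gstm1. The order of the genes therefore depends on the probe set. The genotype ratio was thus larger on HFD in 8 of the 10 members, as in 49.0% of all genes, and in the 5 mu class members among them. The 2 other mu class genes went the other way, with log2 genotype ratios of -0.07 on HFD and 0.20 on chow for Gstm5, and 0.05 on HFD and 0.20 on chow for Gstm7. With 4 arrays a model with this difference leaves no residual freedom, so it was not tested, and it rests on 1 array for each group. The array labelled LASS2-/- HFD was the highest of the 4 for 5 of 10 members by gene, as it was for 27.5% of all genes and 21.1% of those with a mean log2 signal of 10 or more.

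**Figure D2:**
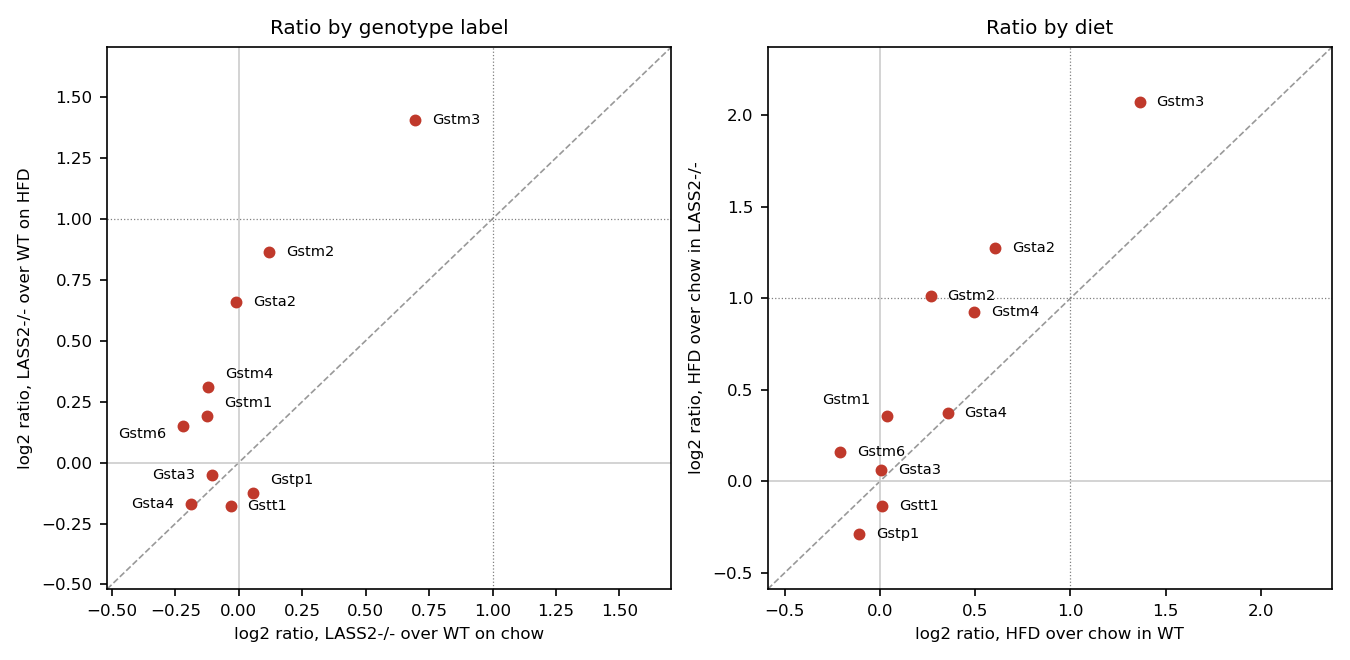
Log2 ratios of the 10 members, as LASS2-/- over WT on HFD (vertical) against chow (horizontal) in the left panel, and as HFD over chow in LASS2-/- (vertical) against WT (horizontal) in the right panel. Each point is 1 gene, by its brightest probe set, from 1 array a group. The dashed line marks equal ratios and dotted lines mark 2-fold higher. Gstm3 lies farthest from the origin, at 0.70 and 1.40 by genotype and 1.36 and 2.07 by diet. The height of a gene above the dashed line is the same quantity in both panels, so the panels are not separate evidence of it. Of the 10 members 8 lie above the line, with Gstm2, Gstm3 and Gsta2 the farthest above.

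The 5 mu class members sit in 1 run of genes on mouse chromosome 3. In the order of assembly GRCm38.p6 the 7 protein-coding genes Gstm5, Gstm7, Gstm6, Gstm3, Gstm2, Gstm1 and Gstm4 follow each other with no other protein-coding gene between them. The 3 mu class genes that rose with HFD in limma, Gstm3, Gstm2 and Gstm4, lay in the later 4 places of that order, with Gstm1 between them. The first 3 did not pass. Gstm5 had log2 HFD over chow ratios of 0.00 in LASS2-/- and 0.28 in WT (limma adjusted p = 0.561), and Gstm7 had -0.31 and -0.15 (limma adjusted p = 0.305).

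**Figure D3:**
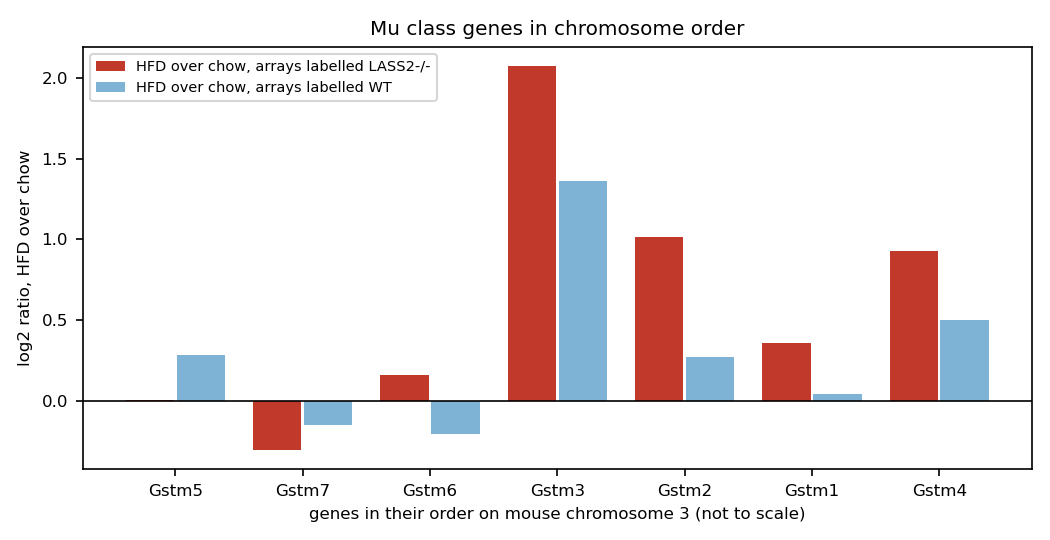
Log2 ratio of HFD over chow (vertical axis) for the 7 mu class genes in their order on chromosome 3 (horizontal axis, not to scale), with 1 bar for the arrays labelled LASS2-/- and 1 for those labelled WT. Bars start at 0 and have no error because each is a ratio of 2 arrays. The bars of Gstm3 reach 2.07 and 1.36, and those of Gstm5, Gstm7 and Gstm6 lie between -0.31 and 0.28.

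The sequences before the starts of the 4 members with the largest diet effects (Gstm3, Gsta2, Gstm4 and Gstm2) are shown because these genes rose together. Those of Gsta3 and Gstp1, which did not pass, are shown because they hold a motif. Each is the 250 bases before the start, 5' to 3' on the gene's strand, from RefSeq on GRCm38.p6. Of the 10 members 9 had such an entry. For Gstm4, which has 2 listed starts, the first is given.
Gstm3, chr3:107969175-107969424, minus strand: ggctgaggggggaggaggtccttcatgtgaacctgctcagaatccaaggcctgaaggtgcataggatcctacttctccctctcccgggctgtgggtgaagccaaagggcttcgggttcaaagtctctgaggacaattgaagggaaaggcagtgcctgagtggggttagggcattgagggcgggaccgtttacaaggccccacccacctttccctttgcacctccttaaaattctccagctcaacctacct
Gstm2, chr3:107986421-107986670, minus strand: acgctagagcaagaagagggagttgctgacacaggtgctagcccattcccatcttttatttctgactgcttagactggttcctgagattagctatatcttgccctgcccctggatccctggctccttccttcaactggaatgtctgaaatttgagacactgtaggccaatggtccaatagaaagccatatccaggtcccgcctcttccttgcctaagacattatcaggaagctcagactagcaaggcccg
Gstm4, chr3:108044860-108045109, minus strand: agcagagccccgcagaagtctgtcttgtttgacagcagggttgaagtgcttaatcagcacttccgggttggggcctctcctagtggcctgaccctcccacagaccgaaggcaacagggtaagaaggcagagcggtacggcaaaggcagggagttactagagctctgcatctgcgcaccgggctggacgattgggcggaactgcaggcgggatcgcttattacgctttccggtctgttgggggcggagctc
Gsta2, chr9:78347146-78347395, minus strand: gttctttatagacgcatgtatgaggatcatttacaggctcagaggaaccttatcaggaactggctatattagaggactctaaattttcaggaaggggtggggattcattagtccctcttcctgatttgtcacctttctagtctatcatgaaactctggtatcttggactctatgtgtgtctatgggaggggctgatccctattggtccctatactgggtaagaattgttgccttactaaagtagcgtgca
Gsta3, chr1:21240335-21240584, plus strand: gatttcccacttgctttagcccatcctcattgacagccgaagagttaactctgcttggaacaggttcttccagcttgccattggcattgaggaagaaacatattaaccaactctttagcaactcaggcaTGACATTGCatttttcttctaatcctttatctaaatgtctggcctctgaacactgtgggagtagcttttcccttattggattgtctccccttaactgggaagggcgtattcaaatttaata
Gstp1, chr19:4037913-4038162, minus strand: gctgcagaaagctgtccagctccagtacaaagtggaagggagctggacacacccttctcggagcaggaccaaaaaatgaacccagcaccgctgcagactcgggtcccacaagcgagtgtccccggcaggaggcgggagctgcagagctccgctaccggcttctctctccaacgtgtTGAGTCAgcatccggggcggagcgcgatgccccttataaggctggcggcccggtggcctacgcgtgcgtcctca

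Capitals mark exact motif matches on either strand. The motifs searched were TGACNNNGC, the core of the antioxidant response element that NRF2 binds, TGANTCA, the AP-1 motif, and the HNF1 motif. The antioxidant core and the AP-1 motif can overlap where they share TGA. In Gsta3 the antioxidant core lay 121 to 113 bases before the start, and in Gstp1 the AP-1 motif lay 74 to 68 bases before it. Of 13 member windows 1 held the antioxidant core, against 10.2% of all 32851 windows of this length, and 1 held the AP-1 motif, against 6.75%. The HNF1 motif was in 0 member windows and in 0.00913% of all windows. A match is a string of letters and not a shown binding site.

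Among other GST genes, Mgst3 and Gstk1 rose with HFD. Of 18 listed, 12 entered and 2 rose with diet and 0 fell, where 6.26% of all genes and 9.98% of the brighter ones rose. For genotype 0 passed in limma while 3 had an unadjusted p under 0.05, as 10.4% of all genes did. Mgst3, a microsomal enzyme with glutathione transferase and peroxidase activity, had 11.35 on LASS2-/- HFD, 11.49 on WT HFD, 10.40 on LASS2-/- chow and 10.57 on WT chow. Its diet effect was nearly the same in both genotypes, and limma gave 0.93 ± 0.11 (adjusted p = 6.66e-05). Gstk1, a mitochondrial and peroxisomal kappa class gene, changed by 0.39 ± 0.09 (limma adjusted p = 0.0111). Limma diet effects of the cytosolic genes Gstm5, Gstm7, Gstp3, Gstt2, Gstt3 and Gsto1, and of Gstz1, Gstcd and the microsomal Mgst1, lay between -0.23 and 0.26 log2 and did not pass. Mgst2 was below the array median on 3 arrays, with 6.79 on LASS2-/- HFD, 3.15 on WT HFD, 2.32 on LASS2-/- chow and 5.99 on WT chow, and has no usable ratio. Gsta1, Gstp2, Gstt4, Gsto2, Hpgds and Ptges did not enter. A probe set that names Gsta1 together with Gsta2 and Gm3776 was assigned to no gene and was higher on HFD, as described further below.

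**Figure D4:**
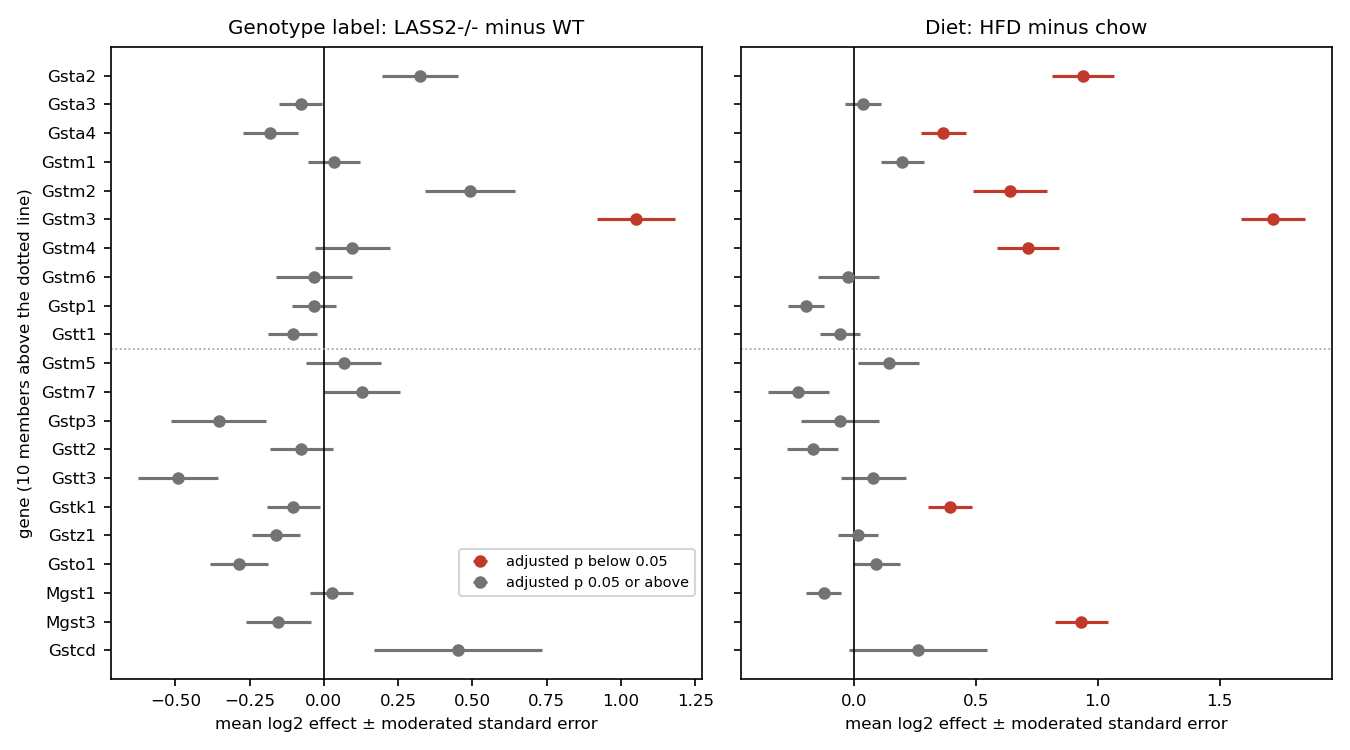
Mean log2 effect (horizontal axis) of genotype label (left) and of diet (right) from limma, for the 10 members above the dotted line and 11 other GST genes below it (Mgst2, with a standard error of 1.96 log2, is left out). Points are effects over 4 arrays, bars are moderated standard errors, and red marks an adjusted p below 0.05. By diet 5 members, Gstk1 and Mgst3 are red, and by genotype Gstm3 alone is, at 1.05 ± 0.13.

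Of 20 genes that make, recycle or break down glutathione, 17 entered, and of these 6 rose and 0 fell with diet in limma, where 6.26% of all genes rose and 9.98% of those with a mean log2 signal of 10 or more. The other 11 did not pass, and Chac1, Ggt6, Oplah, Cth and Ggt5, named after their values were seen, had effects between -0.27 and -0.02. The list had a median limma diet effect of 0.13 against 0.02 over all genes. Ggct, which cleaves gamma-glutamyl peptides, rose by 1.30 ± 0.17 (limma adjusted p = 0.000138), and Pgd, an NADPH-making enzyme of the pentose phosphate pathway, by 0.92 ± 0.17 (limma adjusted p = 0.00266). Gss, glutathione synthetase, rose by 0.81 ± 0.12 (limma adjusted p = 0.000521), and Gclc, the catalytic subunit of the rate-limiting ligase, by 0.80 ± 0.09 (limma adjusted p = 4.125e-05). The log2 genotype ratio of Pgd was 0.91 on HFD and -0.09 on chow. Glrx, glutaredoxin, was the 1 gene of this list to fall with the genotype label in limma, where 0.352% of all genes fell. Its genotype effect was a fall of 0.55 ± 0.11 (limma adjusted p = 0.03055). Glrx was also among the genes that rose with diet, by 0.61 ± 0.11 (limma adjusted p = 0.00196). It was named after its values were seen.

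Of 10 glutathione peroxidases and other users of glutathione, 8 entered and 1 rose with diet, where 6.26% of all genes rose. Among genes with a mean log2 signal of 10 or more, 9.98% rose. The gene that rose was Gpx4, which reduces phospholipid hydroperoxides, by 0.46 ± 0.08 (limma adjusted p = 0.00165). Of 14 genes of conjugate export and mercapturate formation, 14 entered, 4 rose and 0 fell with diet, where 6.26% of all genes rose. Abcc4, an export pump of the basolateral membrane, had 10.41 on LASS2-/- HFD, 8.02 on WT HFD, 7.51 on LASS2-/- chow and 7.57 on WT chow, and LASS2-/- HFD stood apart. Its limma diet effect was 1.68 ± 0.38 (adjusted p = 0.0107). Abcc3, a second basolateral pump, rose by 1.17 ± 0.12 with diet (limma adjusted p = 1.355e-05) and fell by 0.53 ± 0.12 with the genotype label (limma adjusted p = 0.0474). Acy3, an aminoacylase that acts on mercapturates, rose by 0.64 ± 0.13 (limma adjusted p = 0.00501), and Abcc2, the canalicular pump for glutathione conjugates, by 0.44 ± 0.09 (limma adjusted p = 0.00602).

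Of 17 regulators known to act on GST genes, 16 entered, 4 rose and 2 fell with diet, and 0 rose and 2 fell with the genotype label. Of all genes 6.26% rose and 5.04% fell with diet, and 0.56% rose and 0.352% fell with genotype. Ahr, the aryl hydrocarbon receptor, rose with HFD by 1.73 ± 0.11 (limma adjusted p = 2.65e-07), and Nr1i3, the nuclear receptor CAR, by 0.59 ± 0.11 (limma adjusted p = 0.00358). Both fell with the genotype label in limma, Ahr by 0.52 ± 0.11 (adjusted p = 0.037) and Nr1i3 by 0.57 ± 0.11 (adjusted p = 0.0339). Bach1, a repressor that competes with NRF2 for its sites, fell with HFD by 0.92 ± 0.11 (limma adjusted p = 0.000106), and Ppara, a receptor for fatty acids, rose by 0.39 ± 0.09 (limma adjusted p = 0.0133). Nfe2l2 rose with HFD by 0.38 ± 0.11 (limma adjusted p = 0.0416) and Hnf4a, a hepatocyte transcription factor, fell by 0.32 ± 0.08 (limma adjusted p = 0.0239), both named after their values were seen.

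The 5 genes whose pattern over the 4 arrays was closest to that of Gstm3 were Sprr1a, Srxn1, Orm2, Saa2 and Tspan8. The measure was the root mean square distance between centred log2 signals, which lay between 0.12 and 0.20 for these 5 of 2766 genes that ranged over at least 1 log2. Srxn1, sulfiredoxin, had 11.47 on LASS2-/- HFD, 9.79 on WT HFD, 9.20 on LASS2-/- chow and 8.76 on WT chow. In the same order of arrays, Orm2 had 11.79, 10.52, 9.52 and 9.19, and Saa2 had 13.20, 11.67, 10.77 and 10.08. Signals were not floored for this measure. On LASS2-/- chow and WT chow, Sprr1a (6.04 and 5.55) and Tspan8 (6.06 and 5.72) lay under the array median. With 4 arrays, patterns of many genes can be this close, and the genes share the same arrays.

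Some markers of other cells and liver zones differed between the same arrays. In limma 6.26% of all genes rose and 5.04% fell with diet, and 0.56% rose and 0.352% fell with genotype. Among genes with a mean log2 signal of 10 or more, 9.98% rose and 9.98% fell with diet. In bulk tissue, fewer cells of a type and less RNA per cell cannot be told apart. Of 8 pericentral markers 3 rose and 0 fell with diet in limma (Glul, Rhbg and Slc1a2, median of the list 0.35), with summed linear signals of 91554 on LASS2-/- HFD, 89733 on WT HFD, 84821 on LASS2-/- chow and 83981 on WT chow. Of 7 periportal markers 5 entered and 2 fell with diet (Cyp2f2 and Hal, median -0.31), with sums of 67422 on LASS2-/- HFD, 73723 on WT HFD, 86915 on LASS2-/- chow and 77688 on WT chow. On the genotype label 1 of the 5 fell (Hal). Of 12 macrophage markers 2 rose with the genotype label (Marco and Lyz2, median 0.39) and 1 with diet (Lyz2), with sums of 34210 on LASS2-/- HFD, 23480 on WT HFD, 29082 on LASS2-/- chow and 23778 on WT chow. Of 9 hepatocyte markers 2 fell with diet (Ahsg and Fgb), with sums of 318820 on LASS2-/- HFD, 333177 on WT HFD, 377954 on LASS2-/- chow and 356580 on WT chow. Of 7 stellate cell markers 2 rose with diet (Col3a1 and Dcn) and 1 fell (Des), and of 8 endothelial markers 1 rose (Cdh5). No marker of these lists that entered was at 0 on an array. Their part in the GST values was not tested.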

How the data were processed

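Per the labels' protocols, liver RNA was taken up in TRIZOL, cleaned with RNeasy and DNase, and amplified with the GeneChip 3' IVT Express chemistry. The authors deposited a log2 signal for each probe set of each array. MAS5 is the method named, per the submitters' processing notes; its version and scaling are not given in the sources. The number of arrays limits the precision.

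Symbols came from the platform annotation, updated through gene numbers to RefSeq on GRCm38.p6. Of 45037 probe sets, 34945 had 1 symbol, 932 several and 9160 were not named here. A probe set entered if its signal was at or above the median of any of the 4 arrays, and the brightest by mean represented its gene, leaving 12493 genes. For ratios, signals were floored at the array median (6.19 for LASS2-/- HFD, 6.19 for WT HFD, 6.28 for LASS2-/- chow and 6.17 for WT chow). Calls were ratios of at least 2-fold.

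Mean effects came from limma 3.58.1 in R 4.3.3, fitting diet plus genotype to unfloored log2 values with 1 residual degree of freedom and trended moderation. Benjamini-Hochberg adjustment ran over all genes, with a threshold of 0.05. The prior weighed as 12.7 degrees of freedom. On simulated data with genotype effects alone, and noise set by signal, the fit returned the effects it was given. It passed more unchanged genes than its threshold allows, so adjusted p-values can be too small. False calls were 11.7% of calls among genes with a mean log2 signal of 10 or more, and 27.4% among dimmer genes. The simulated noise was normal and the same for genes of like signal, so these shares need not hold for the measured genes. Diet effects were not simulated. Ratios and counts were computed in Python 3.11.15 with pandas 2.3.3 and numpy 2.4.6.

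The members and lists were chosen with earlier results of these data known. Named genes were the members, the other GST genes, up to 4 passing genes per further list with the largest effects, and the 5 genes closest in pattern to the member with the widest range.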

Additional observations from a re-analysis of the deposited data

Results flagged for a closer look

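In 5 of the 10 members the log2 genotype ratio had opposite signs on the 2 diets. It had so in 43.0% of all genes and 40.6% of those with a mean log2 signal of 10 or more, so the count was near these shares. It was 0.66 on HFD and -0.01 on chow in Gsta2, 0.19 on HFD and -0.12 on chow in Gstm1, 0.31 on HFD and -0.12 on chow in Gstm4, 0.15 on HFD and -0.22 on chow in Gstm6, and -0.12 on HFD and 0.06 on chow in Gstp1. In 2 of the 10 members the log2 ratio of HFD over chow had opposite signs in the 2 genotypes. This was so in 34.5% of all genes and 23.7% of those with a mean log2 signal of 10 or more. The ratios were 0.16 in LASS2-/- and -0.21 in WT for Gstm6, and -0.13 in LASS2-/- and 0.01 in WT for Gstt1. The ratios of Gsta2 on chow and of Gstt1 in WT lay near 0. For Gstp1 the opposite signs did not hold with equal medians (-0.05 on chow) or quantile normalization (-0.01 on chow), nor for Gstt1 with equal medians (-0.0048 in WT). For Gstm1 the opposite signs did not hold on a dimmer probe set (0.59 on HFD and 0.10 on chow). Its other dimmer probe sets kept them, with 0.81 on HFD and -0.64 on chow, and 0.35 on HFD and -0.17 on chow. Each difference rests on 1 array a group, and the differences were not tested.

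Outside the members, 1 probe set annotated to 3 symbols (Gsta1, Gsta2 and the gene model Gm3776), and so assigned to none, had 14.12 on LASS2-/- HFD, 12.88 on WT HFD, 11.29 on LASS2-/- chow and 11.13 on WT chow. Its log2 ratio of HFD over chow was 2.84 in LASS2-/- and 1.75 in WT, and the array labelled LASS2-/- HFD was the highest.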

How the results depend on the processing

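The number of members passing limma for diet was 5, and 4 or 5 under every alternative except the fit without trend, where 0 passed. Passing limma for genotype was 1 member, and 0 with equal medians, without _x_at and _s_at probe sets, without trend and with robust moderation. At 1.5-fold, 3 members were called by genotype on HFD, 1 by genotype on chow and 2 by diet in WT, against 1, 0 and 1 at 2-fold. Without _x_at and _s_at probe sets 0 were called by diet in WT. Limma effects near 0 changed sign in 3 cases: Gstm1 by genotype (-0.0191) and Gstm6 by diet (0.0094) with equal medians, and Gstt1 by diet (0.0016) with quantile normalization. The causes were not tested.

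Over all genes, 70 rose and 44 fell by genotype in limma. These were 14 and 9 after quantile normalization, 11 and 11 with equal medians, 36 and 27 with the mean of all probe sets, 33 and 19 with no filter, and 0 and 0 without trend (820 at an unadjusted p under 0.05). By diet 782 rose and 630 fell, which became 540 and 358 with equal medians and 0 and 0 without trend (1783 at an unadjusted p under 0.05). By diet in LASS2-/-, equal medians moved the genes 2-fold higher and lower to 495 and 189, from 389 and 236. By genotype on chow it moved them to 104 and 95, from 145 and 53, and the median log2 ratio of all genes to -0.07, from 0.03; that of the members was -0.17, against -0.07. Lowering the floor to the 25th percentile gave 6.82% of all genes 2-fold apart by genotype on HFD, against 1.96%. It could change no member count, since every member probe set lay above the median of every array. Fitting each probe set on its own row was added after the data were seen. No paired analysis was possible because each group has 1 array and the labels carry no replicate numbers. Leaving out an array was not run, since 3 arrays leave the additive model no residual freedom.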
